A study of Rattus norvegicus with 14 samples.

Results

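The insulin-like growth factor (IGF) axis was described here through 9 rat genes: the ligand Igf1, its receptor Igf1r and the binding proteins Igfbp1 to Igfbp7. All probes carrying one of these gene names were taken from Agilent one-colour arrays, which gave 14 probes of 8 genes among 41012 probes. No probe was named Igfbp7. A probe described in the files only as similar to mac25 carries the gene number that RefSeq assigns to Igfbp7, and with it the set held 15 probes of 9 genes. Igf1 had 4 probes, Igfbp3, Igfbp4 and Igfbp5 had a pair each, and the others had 1.

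IGF1 is a secreted growth factor that acts through IGF1R, a tyrosine kinase of the cell surface, and signals through insulin receptor substrates to PI3K and AKT. Most IGF in body fluids is held by binding proteins, which prolong its life, keep it from the receptor, or release it when proteases cut them. IGFBP7 binds IGF with low affinity and is usually counted as an IGFBP-related protein. The hypoblast, or primitive endoderm, is the layer of the blastocyst that gives rise to the yolk sac endoderm, and bone marrow stromal cells are known sources of IGF1 and of several binding proteins.

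RNA of 7 rat lines was measured on 14 arrays, each line on an array A and an array B. The blastocyst group held Fi1 (Fischer, male), Fi2 (Fischer, female) and Wk8 (Wistar-Kyoto, female), and the bone marrow group held CL19 (Fischer, female), 3C3 (Fischer, male) and RMAPC-1 (Fischer, male). The design text calls both groups hypoblast stem cells. The control was RClone-2 (Fischer, male), a single mesenchymal line, so that its spread between lines was taken from the other 2 groups. No treatment, passage number or culture medium is given in the sources used here. Nothing says that A and B came from separate cultures, so both arrays were averaged and the line was the replicate. The p-values measure the spread between lines within the blastocyst and bone marrow groups, and the number of lines limits the precision. A spread between mesenchymal lines was not measured, so the contrasts with RClone-2 concern that line only.

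A probe is shown for the receptor and for 5 binding proteins, because each value below is the signal of a single stretch of sequence. Positions are those of the array files on rat build rn4. The capitals mark the longest run shared by probes of 2 of these genes, 12 bases in Igfbp3 and Igfbp6. At these probes the stem cell lines lay above RClone-2 for Igfbp3 and below it for Igfbp6. Between blastocyst and bone marrow lines both differed in the same direction, by 0.53 and 0.23, and neither passed.
Igf1r probe A_44_P474037, chr1:122989150-122989209, plus strand: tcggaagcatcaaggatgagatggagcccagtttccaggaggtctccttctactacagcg
Igfbp2 probe A_44_P547185, chr9:71967157-71967216, plus strand: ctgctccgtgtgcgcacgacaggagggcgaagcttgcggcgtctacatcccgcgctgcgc
Igfbp3 probe A_44_P180127, chr14:87961611-87962505, minus strand: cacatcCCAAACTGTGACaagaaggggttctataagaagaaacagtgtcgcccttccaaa
Igfbp4 probe A_44_P515317, chr10:87829564-87829623, plus strand: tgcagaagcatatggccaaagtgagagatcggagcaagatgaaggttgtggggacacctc
Igfbp6 probe A_44_P378799, chr7:140888422-140888481, plus strand: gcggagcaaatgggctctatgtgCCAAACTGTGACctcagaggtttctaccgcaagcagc
Igfbp7 probe A_44_P375102, chr14:33068091-33068150, plus strand: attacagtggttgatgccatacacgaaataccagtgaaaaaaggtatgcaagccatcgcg
Each probe is 60 bases long. The Igfbp3 probe covers a span of 895 bases on the genome, so it crosses at least 1 intron.

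Levels below are log2 of the scanner's processed signal minus the 75th percentile of the array, and a level of 0 lies at that percentile. A level is comparable between lines for one probe, not between probes. Between 61.6% and 67.9% of probes were well above background on an array, and no probe of the set was saturated. All 8 primitive endoderm markers were above background on both arrays of each of the 6 stem cell lines, with mean levels from 4.31 to 4.86, against -3.18 in RClone-2. In RClone-2 7 of the 8 were also above background on both arrays. Only Dab2 did not lie above RClone-2 in every stem cell line, with 0.81 in Wk8 and 0.87 in RClone-2. The mean of 10 mesenchymal markers lay between -5.74 and -5.40 in the stem cell lines and at 3.82 in RClone-2. Of these 10 only Vcam1 was higher in blastocyst lines than in RClone-2, with 1.52, 0.22 and 0.18 in Fi1, Fi2 and Wk8 against -2.37. Of 6 leukocyte and macrophage markers, Ptprc, Itgam and Aif1 were not kept as above background in any line. Cd68, Csf1r and Cd14 were above background in all 7 lines, with a mean from -2.49 to -1.79 in the stem cell lines and of -0.37 in RClone-2, where Cd14 reached 3.72. RMAPC-1 stood apart, with 16.6% of tested probes differing over 2-fold between its arrays, against 3.1% to 6.3% in the other 6 lines. Slides 1 and 3 carried the blastocyst lines with CL19. Slides 2 and 4 carried RClone-2 with the other bone marrow lines. Within a slide pair blastocyst lines can be set only against CL19, and blastocyst lines against RClone-2 not at all.

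The 3 contrasts compared the blastocyst with the bone marrow lines in this axis, and each of these groups with the mesenchymal line. As origin and slide largely coincide, they describe these lines and cannot tell origin from slide. Line means were fitted with limma over 29299 probes, with Benjamini-Hochberg adjustment over all of them and a threshold of 0.05. Of the 15 probes 13 were tested, and both Igfbp5 probes were not well above background on any array.

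Between blastocyst and bone marrow lines 7 of 13 probes passed, 2 higher and 5 lower in blastocyst lines, on 4 genes. Of all probes 32.4% passed, 9.13% higher and 23.3% lower. Against RClone-2, 9 of 13 probes passed for blastocyst lines, 3 higher and 6 lower, with 48.7% of all probes passing, 22.9% higher and 25.8% lower. For bone marrow lines against RClone-2, 11 of 13 passed, 5 higher and 6 lower, with 46.8% of all probes passing, 27.0% higher and 19.8% lower. The median difference of the 13 probes was 0.23, -0.95 and -0.02 in these contrasts, against -0.20, -0.07 and 0.19 over all tested probes. Without scaling between arrays, the blastocyst against bone marrow split was 6 higher and 2 lower for these genes, and 84.7% of all calls were higher, against 28.2% with scaling. With the same change 69.2% of all calls were higher for blastocyst lines against RClone-2, against 46.9% with scaling. Scaling on the spiked-in transcripts gave 1489 calls higher and 7802 lower between blastocyst and bone marrow lines. Against RClone-2 it gave 22.5% of calls higher for blastocyst lines and 36.2% for bone marrow lines, where the 75th percentile gave 46.9% and 57.7%. Both contrasts with RClone-2 share that line, so their values are given side by side.

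**Figure D1:**
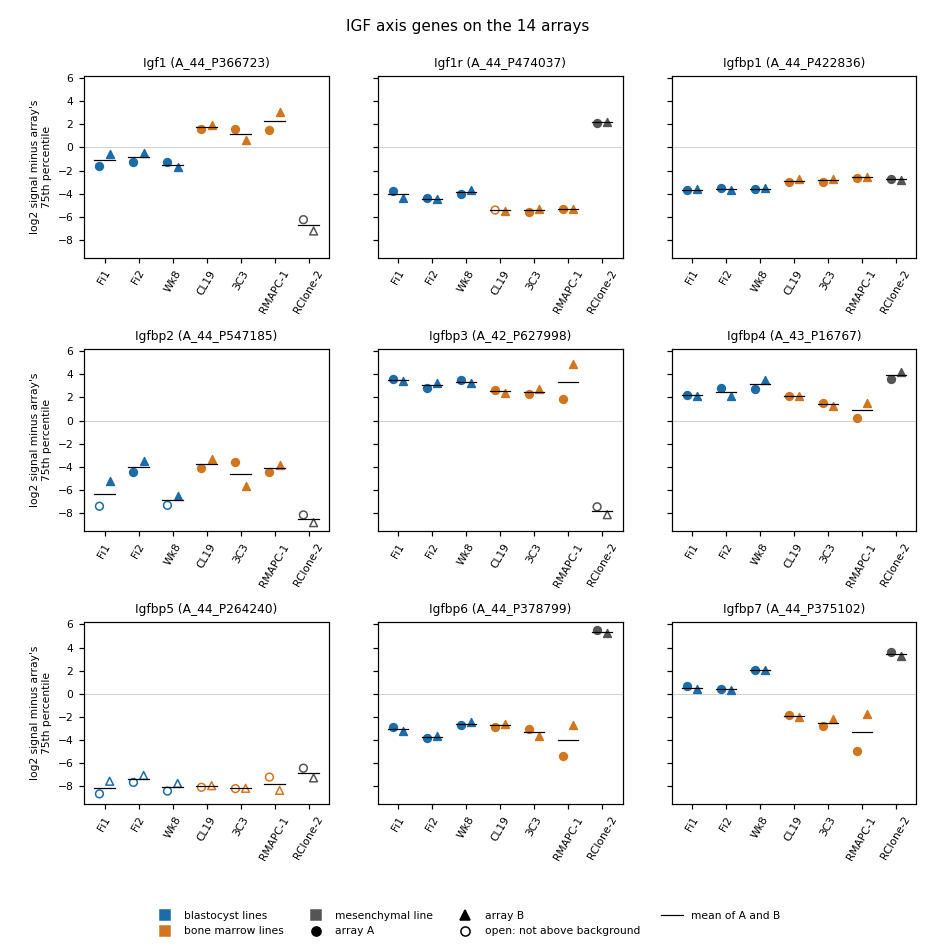
Level (log2 processed signal minus the array's 75th percentile) of 1 probe of each of the 9 genes on all 14 arrays, by line, with blastocyst lines at the left, then bone marrow lines, then RClone-2. Filled points are above background, circles are array A, triangles array B and bars the line mean. Igfbp3 is between 1.86 and 4.89 on all stem cell arrays and below background in RClone-2, while Igfbp6 and Igf1r are highest in RClone-2.

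Igf1 was lower in blastocyst than in bone marrow lines at all 4 of its probes. The brightest, A_44_P366723 at chr7:24604715-24604774 (rn4), had levels of -1.09 in Fi1, -0.86 in Fi2 and -1.49 in Wk8, against 1.77 in CL19, 1.14 in 3C3 and 2.26 in RMAPC-1. In RClone-2 the probe was not above background on either array. The 3 groups did not overlap. Blastocyst lines were 7.3-fold lower than bone marrow lines (log2 difference -2.87 ± 0.32 SE, n = 3 each, adjusted p = 0.00585). Against RClone-2 the level was at least 36.4-fold higher in blastocyst lines (adjusted p = 2.5e-04) and at least 265-fold higher in the bone marrow group (adjusted p = 4.6e-05). Such bounds set the group's mean against the lowest signal called above background on the arrays where the probe was not.

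The other 3 Igf1 probes lie near the 5′ end of the gene, where alternative leader exons are spliced to a shared exon, and were dimmer. A_44_P126021, which spans 5094 bases of rn4, averaged -4.81 ± 0.18 in blastocyst lines, -3.87 ± 0.15 in bone marrow lines (SD, n = 3 each) and -3.20 in RClone-2. RClone-2 was its highest line, 3.05-fold above blastocyst lines (difference -1.61, adjusted p = 0.00159) and 1.59-fold above bone marrow lines (difference -0.67, adjusted p = 0.0398). The last of these calls was lost in 14 of 25 alternative fits, with adjusted p between 0.0164 and 0.741. A_44_P421499, which spans 3239 bases, averaged -5.23 ± 0.44 in blastocyst lines, -3.39 ± 0.61 in bone marrow lines and -5.73 in RClone-2. It was 5.08-fold higher in bone marrow lines than in RClone-2 (adjusted p = 0.0129), and for blastocyst lines the difference of 0.50 did not pass (95% interval -0.77 to 1.77, adjusted p = 0.457).

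The remaining Igf1 probe, A_44_P421502, ends 1 base before the start of A_44_P421499 on the genome. Its 60 bases all lie upstream of the Igf1 start in RefSeq's GRCr8 annotation, from 71 to 12 bases before it, so it reads transcripts that begin further upstream. The 250 bases before that start, chr7:24172282-24172531 on the plus strand of GRCr8, are shown with the probe in capitals.
Igf1: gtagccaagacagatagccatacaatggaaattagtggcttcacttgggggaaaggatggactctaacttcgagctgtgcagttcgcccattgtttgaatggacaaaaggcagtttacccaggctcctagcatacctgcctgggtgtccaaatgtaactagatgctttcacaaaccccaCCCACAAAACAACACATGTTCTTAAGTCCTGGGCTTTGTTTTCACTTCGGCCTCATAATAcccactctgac
The probe's level was dim everywhere, from -5.90 to -5.83 in blastocyst lines, from -5.14 to -4.78 in bone marrow lines and -4.93 in RClone-2. Blastocyst lines lay 1.9-fold below bone marrow lines (difference -0.93 ± 0.13 SE, adjusted p = 0.00874) and 1.93-fold below RClone-2 (adjusted p = 0.00801). Bone marrow lines and RClone-2 differed by -0.02 (95% interval -0.47 to 0.44, adjusted p = 0.946). Signal at the 5′ probes was therefore present in RClone-2 where the probe A_44_P366723 was not above background. The calls of all 3 of these probes between stem cell groups were lost with normexp background correction, with adjusted p from 0.333 to 0.859. Without scaling between arrays the difference was -0.46 at A_44_P126021 (adjusted p = 0.0727) and -0.45 at A_44_P421502 (adjusted p = 0.0543), and neither passed.

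**Figure D2:**
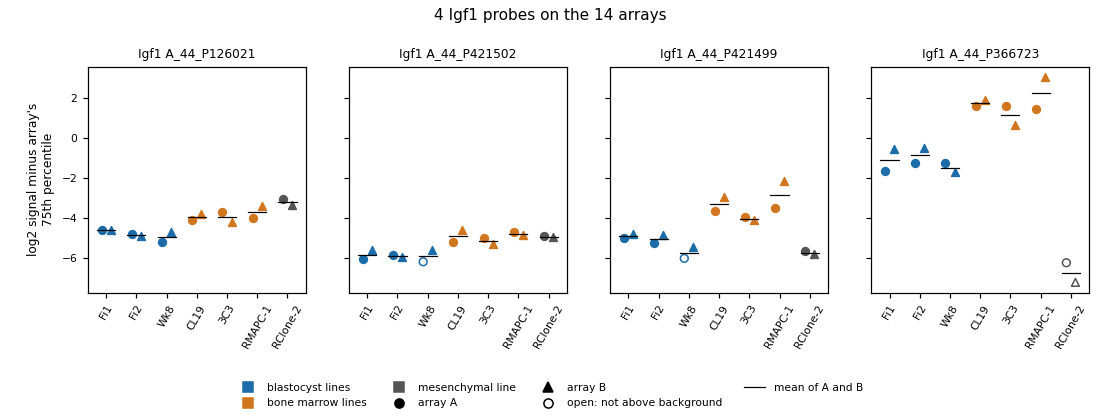
Levels of the 4 Igf1 probes on the 14 arrays, with blastocyst lines at the left, then bone marrow lines, then RClone-2, points and bars as for the plot of the 9 genes. Bone marrow lines lie above blastocyst lines in each panel, and RClone-2 is below background only for A_44_P366723.

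Igf1r, the receptor, ran the other way between the stem cell groups. Its probe gave levels of -4.05 in Fi1, -4.45 in Fi2 and -3.83 in Wk8, against -5.44 in CL19, -5.44 in 3C3 and -5.30 in RMAPC-1, and 2.19 in RClone-2. The processed signal was at most 63.03 on any stem cell array, with 2664 and 2972 on the RClone-2 arrays. Blastocyst lines were 2.44-fold higher than bone marrow lines (difference 1.29 ± 0.18 SE, adjusted p = 0.00865), while both were far below RClone-2. The fold was 78.9 for blastocyst lines (difference -6.30, adjusted p = 1.5e-05) and 193 for bone marrow lines (difference -7.59, adjusted p = 7.5e-06). With normexp background correction the difference between the stem cell groups was 0.39 (adjusted p = 0.375), with adjusted p from 3.4e-04 to 0.375 over all alternatives.

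Across the lines the receptor was therefore brightest where the Igf1 probe A_44_P366723 was below background. Bone marrow lines had the highest level of that ligand probe and the lowest of the receptor probe. The other Igf1 probes did not all share this. A_44_P421499 was also highest in bone marrow lines. A_44_P126021 was highest in RClone-2 (-3.20), as the receptor was, and at A_44_P421502 RClone-2 (-4.93) lay at the level of bone marrow lines (-4.94). This is a description over 7 lines of 3 groups.

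Igfbp3, the main carrier of IGF in blood, was bright in all stem cell lines and not above background in RClone-2. Its probe A_42_P627998 had levels of 3.48, 3.04 and 3.35 in Fi1, Fi2 and Wk8, and 2.52, 2.50 and 3.37 in CL19, 3C3 and RMAPC-1. RClone-2 was below background on both arrays at both Igfbp3 probes. The level was at least 786-fold higher in blastocyst lines (adjusted p = 8.3e-06) and at least 559-fold higher in the bone marrow group (adjusted p = 1.0e-05) than in RClone-2. The second probe, A_44_P180127, gave at least 357-fold and at least 247-fold (adjusted p = 1.5e-05 and 2.0e-05). As bulk RNA was measured, fewer expressing cells and less RNA per cell cannot be told apart.

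Between blastocyst and bone marrow lines Igfbp3 did not pass, with differences of 0.49 (95% interval -0.18 to 1.16, adjusted p = 0.213) and 0.53 (-0.11 to 1.18, adjusted p = 0.169). The value turned on RMAPC-1 and on the scaling. Array B of that line read 4.89 at A_42_P627998 and array A 1.86, the highest and the lowest of all bone marrow arrays. Without array B the 2 probes differed by 1.00 and 1.04 (adjusted p = 0.0248 and 0.0263), without array A by -0.01 and 0.02 (adjusted p = 0.991 and 0.988), and without the line by 0.78 and 0.80 (adjusted p = 0.0523 and 0.0509). With no scaling between arrays the differences were 0.97 and 1.01 (adjusted p = 0.0456 and 0.0365).

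Igfbp6, which prefers IGF2 over IGF1, showed the opposite pattern to Igfbp3 against RClone-2. Its level was -3.04, -3.75 and -2.59 in Fi1, Fi2 and Wk8, and -2.74, -3.32 and -4.02 in CL19, 3C3 and RMAPC-1. RClone-2 had 5.49 and 5.28 on its arrays. The level was 365-fold lower in blastocyst lines (difference -8.51 ± 0.59 SE, adjusted p = 1.4e-04) and 429-fold lower in bone marrow lines (difference -8.75 ± 0.59 SE, adjusted p = 1.2e-04) than in RClone-2. The stem cell groups overlapped and differed by 0.23 (95% interval -0.79 to 1.26, adjusted p = 0.695).

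Igfbp7 separated all 3 groups. It had levels of 0.53 in Fi1, 0.39 in Fi2 and 2.04 in Wk8, against -1.88 in CL19, -2.51 in 3C3 and -3.32 in RMAPC-1, with 3.44 in RClone-2. Blastocyst lines were 11.8-fold higher than bone marrow lines (difference 3.56 ± 0.56 SE, adjusted p = 0.0103), and Wk8, the only Wistar-Kyoto line, was the highest of them. Bone marrow lines were 64.4-fold lower than RClone-2 (difference -6.01 ± 0.79 SE, adjusted p = 0.00176). Blastocyst lines were 5.47-fold lower than RClone-2 at an adjusted p of 0.044, and that call was lost in 11 of 25 alternatives, with adjusted p between 0.00753 and 0.153. Igfbp7 is also known as a product of endothelial cells: the mean of 6 endothelial markers was -1.88 to -1.40 in blastocyst lines, -3.26 to -2.85 in bone marrow lines and -6.02 in RClone-2, and its part in the result was not tested.

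Igfbp4, a binding protein known mainly to restrain IGF action, was highest in RClone-2. Probe A_43_P16767 had levels of 2.19, 2.50 and 3.14 in Fi1, Fi2 and Wk8, 2.14 in CL19, 1.40 in 3C3, 0.88 in RMAPC-1 and 3.92 in RClone-2. Bone marrow lines were 5.46-fold lower than RClone-2 at this probe (adjusted p = 0.0132) and 6.19-fold lower at A_44_P515317 (adjusted p = 0.00979). For blastocyst lines against RClone-2 the differences of -1.32 and -1.46 did not pass (adjusted p = 0.0925 and 0.0673). Blastocyst lines lay above bone marrow lines without overlap at both probes, by 1.13 and 1.17, and did not pass either (adjusted p = 0.0688 and 0.0618). Without CL19 those differences were 1.47 and 1.51 (adjusted p = 0.0429 and 0.0382), and within slides 1 and 3 they were 0.47 and 0.49 (adjusted p = 0.547 and 0.535).

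Igfbp2, abundant in fetal tissues, was dim and uneven. Its levels were -6.31 in Fi1, -3.99 in Fi2 and -6.90 in Wk8, against -3.72 in CL19, -4.62 in 3C3 and -4.13 in RMAPC-1. RClone-2 was not above background on either array. Fi2 lay among the bone marrow lines, and the groups differed by -1.58 ± 0.76 (SE, adjusted p = 0.159); without Fi2 the difference was -2.45 (adjusted p = 0.0175). Bone marrow lines were at least 4.51-fold above RClone-2 (adjusted p = 0.0193), and without CL19 that adjusted p was 0.0512. For blastocyst lines, above background on 4 of 6 arrays, the bound was 1.51-fold and did not pass (adjusted p = 0.0785).

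Igfbp1 is known as a liver and decidual protein that insulin represses. Of the 13 tested probes its probe varied least, by 1.06 on the log2 scale between the highest and the lowest line. It ranged from -3.65 to -3.55 in blastocyst lines, from -2.87 to -2.59 in bone marrow lines and was -2.76 in RClone-2. Blastocyst lines were 1.77-fold lower than bone marrow lines (difference -0.82 ± 0.12 SE, adjusted p = 0.00965) and 1.78-fold lower than RClone-2 (adjusted p = 0.0105). The 75th percentile itself was 745.7 to 891.5 on blastocyst arrays, 558.9 to 660.1 on bone marrow arrays and 599.0 and 630.7 on RClone-2 arrays. Without scaling neither call passed, at -0.34 (adjusted p = 0.0873) and -0.38 (adjusted p = 0.12). With spike-in scaling the stem cell groups differed by -1.04 (adjusted p = 0.0136), and with quantile normalization by -0.75 (adjusted p = 0.0137). With normexp background correction they differed by -0.39 (adjusted p = 0.422). The call between them passed in 23 of 27 alternatives, and that against RClone-2 in 21 of 25. The bone marrow lines and RClone-2 differed by -0.01 (95% interval -0.43 to 0.42, adjusted p = 0.978).

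Igfbp5 was not well above background on any of the 14 arrays at either probe. Its processed signals were at most 6.949 at A_44_P264240 and 4.641 at A_44_P285534, and no fold is given. Igfbp5 is a neighbour of Igfbp2, and Igfbp1 of Igfbp3, with no gene between the members of a pair in RefSeq's GRCr8 annotation. Igfbp5 gave no pattern to set beside that of Igfbp2. Igfbp1 and Igfbp3 did not share theirs: Igfbp3 was below background in RClone-2 where Igfbp1 had the level of the bone marrow lines.

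The Igfbp1 promoter is known from human and rat work for an insulin response element that binds forkhead factors of the FOXO and FOXA families. The 250 bases before its RefSeq start, chr14:86261027-86261276 on the plus strand of GRCr8, are shown for that element, with matches to CAAAACA in capitals.
Igfbp1: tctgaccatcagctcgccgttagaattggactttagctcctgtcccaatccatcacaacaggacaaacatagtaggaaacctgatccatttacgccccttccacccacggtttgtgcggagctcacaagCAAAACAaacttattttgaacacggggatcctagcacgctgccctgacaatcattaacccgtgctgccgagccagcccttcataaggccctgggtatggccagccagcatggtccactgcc
The letters CAAAACA, searched on both strands, stood 121 to 115 bases before the start. Of the 9 promoters of the set, those of Igfbp1 and Igf1 held a match. The Igf1 match lies inside the capitals shown above, the stretch of a probe that reads transcripts begun further upstream. Of 33469 promoters of the same length 5.46% held one. A match describes letters in this window only.

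**Figure D3:**
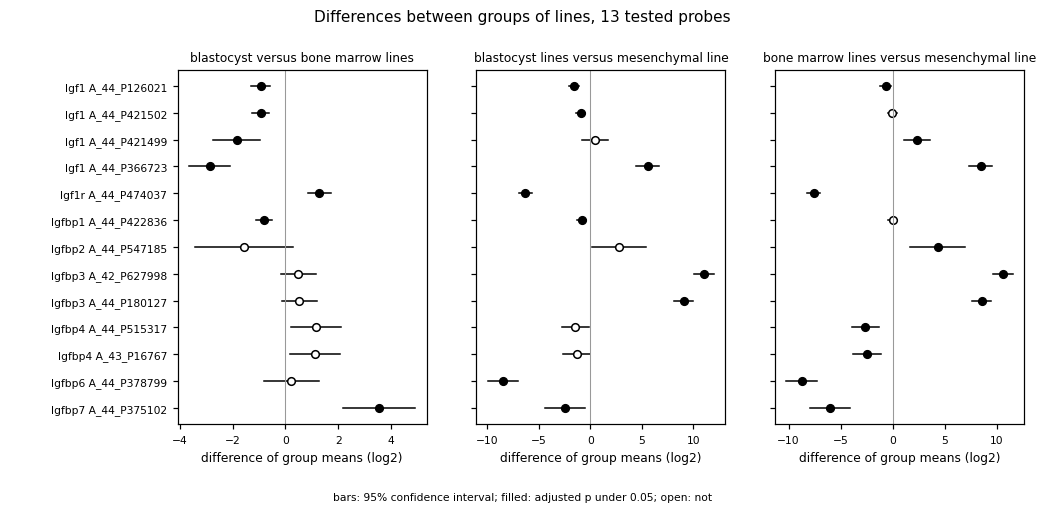
Difference of group means (log2, first group minus second) with its 95% interval for the 13 tested probes in the 3 contrasts, filled where the adjusted p was under 0.05. Igf1 probes lie left of 0 in the blastocyst against bone marrow panel and Igf1r and Igfbp7 right of it, while Igfbp3 and Igfbp6 lie on opposite sides of 0 in both panels against RClone-2.

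The calls between blastocyst and bone marrow lines depended on how the slides entered the fit. With slide as a term and arrays as observations 5 of 13 probes passed, against 3607 of all probes, among them Igf1 at A_44_P366723 (adjusted p = 0.0303), Igf1r (adjusted p = 0.0179) and Igfbp1 (adjusted p = 0.0251), while Igfbp7 did not (adjusted p = 0.0558). With the pair of slides as a term, or within slides 1 and 3 where 3 blastocyst lines met CL19 alone, none of the 13 probes passed in limma. None of all 29299 did either, with 7577 and 6180 at an unadjusted p under 0.05. All 3 of these fits set blastocyst lines against CL19 alone, the only bone marrow line on their slides, so they must give the same difference. That difference was -2.91 for Igf1 at A_44_P366723, 1.34 for Igf1r, -0.72 for Igfbp1 and 2.87 for Igfbp7. With line means and no slide term the values were -2.87, 1.29, -0.82 and 3.56.

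**Figure D4:**
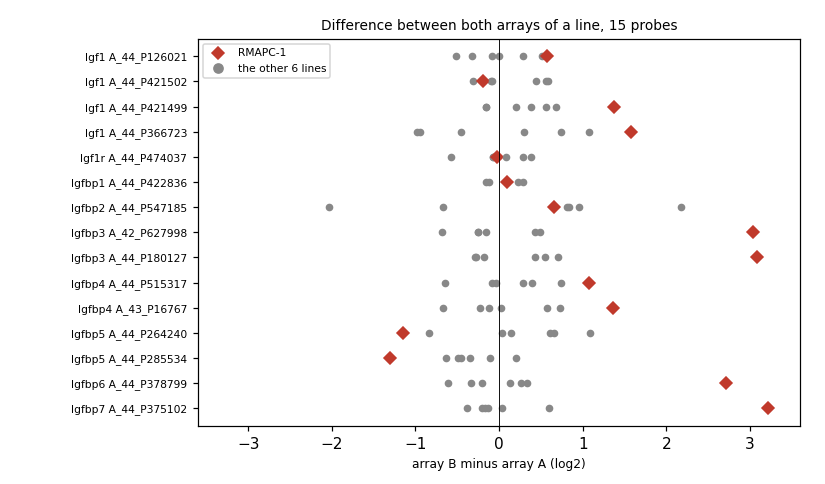
Array B minus array A (log2) of each line for the 15 probes, RMAPC-1 as red diamonds and the other 6 lines as grey points. RMAPC-1 lies at 3.03 and 3.08 for Igfbp3, 2.71 for Igfbp6 and 3.22 for Igfbp7, outside the other lines, and near 0 for Igf1r and Igfbp1.

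Among the probes of these genes, the arrays of RMAPC-1 differed most at Igfbp3, Igfbp6 and Igfbp7. Array B was 8.17-fold and 8.46-fold above array A at the Igfbp3 probes, 9.32-fold at Igfbp7, 6.54-fold at Igfbp6 and 2.99-fold at Igf1 probe A_44_P366723. The ratio was 1.58 at Igfbp2, 1.01 at Igf1r and 1.07 at Igfbp1. In the other 6 lines no Igfbp3, Igfbp6 or Igfbp7 probe differed between arrays by more than 0.70 on the log2 scale. Without array A of RMAPC-1 the Igfbp7 difference between blastocyst and bone marrow lines was 3.02 (adjusted p = 0.0166), and without array B 4.09 (adjusted p = 0.0211).

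Of the other IGF ligands and receptors, 6 of 6 genes were tested and none passed between blastocyst and bone marrow lines (limma, as for all lists). In that contrast 32.4% of all probes passed. Igf2r, the receptor that clears IGF2, had levels of 5.06, 4.39 and 5.13 in Fi1, Fi2 and Wk8 and 3.35, 4.11 and 2.02 in CL19, 3C3 and RMAPC-1, a difference of 1.70 that did not pass (adjusted p = 0.058). Insr, the insulin receptor, was 6.1-fold higher in blastocyst lines (adjusted p = 0.00268) and 5.4-fold higher in the bone marrow group (adjusted p = 0.00352) than in RClone-2, the reverse of Igf1r. Igf2, the fetal ligand, was 21.8-fold higher in bone marrow lines than in RClone-2 (adjusted p = 0.0226), and 9.66-fold in blastocyst lines without passing (adjusted p = 0.0586).

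Of 10 partners, proteases and inhibitors of the binding proteins 8 were tested. Between blastocyst and bone marrow lines 2 were higher and 2 lower, where 32.4% of all probes passed. Stc1, an inhibitor of pappalysin, was 6.15-fold higher (adjusted p = 0.0154), and Pappa, the pappalysin that cuts IGFBP4, 5.76-fold lower in blastocyst lines (adjusted p = 0.0426). Both folds rest on dim values, since Stc1 was above background on 1 of 6 bone marrow arrays and Pappa on 1 of 6 blastocyst arrays. Htra1, a secreted serine protease that also cuts binding proteins, was 1.63-fold higher (adjusted p = 0.0298), and Igfals, the third partner of the circulating IGF complex, 1.72-fold lower (adjusted p = 0.0236). Against RClone-2, 1 was higher and 3 lower in blastocyst lines, and 2 higher and 4 lower in bone marrow lines. The shares of all probes passing there were 48.7% and 46.8%. Stc2, the other stanniocalcin, had a level 351-fold lower in blastocyst lines (adjusted p = 0.00183) and 59.7-fold lower in bone marrow lines (adjusted p = 0.00729), and was above background on 2 of 6 blastocyst arrays and on all 6 bone marrow arrays. Adam12 had no probe under that name, and Pappa2 was below background.

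Of 9 receptor substrates and adaptors 7 were tested, Irs1 and Irs4 being below background. None passed between the stem cell groups, and against RClone-2 1 was higher and 3 lower in each. The shares of all probes passing were 32.4% between the stem cell groups, and 48.7% and 46.8% against RClone-2. Gab1, a docking adaptor, was 31.5-fold higher in blastocyst lines and 34.5-fold higher in the bone marrow group (adjusted p = 1.0e-04 and 9.1e-05). Grb14 was 81.1-fold and 58.2-fold lower (adjusted p = 0.00298 and 0.00404) and Grb10 41.5-fold and 50.9-fold lower (adjusted p = 0.0124 and 0.0103). Both are adaptors known to damp insulin and IGF receptor signalling.

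All 20 PI3K, AKT, mTOR and FOXO genes were tested, and the counts below stand beside 32.4%, 48.7% and 46.8% of all probes passing in the 3 contrasts. Between the stem cell groups 4 were higher and 3 lower in blastocyst lines, with Pik3r3, a regulatory PI3K subunit, 2.64-fold higher (adjusted p = 0.00584), Akt2 2.2-fold higher (adjusted p = 0.00716) and the transcription factor Foxo1 2-fold lower (adjusted p = 0.00717). Against RClone-2, 4 were higher and none lower in blastocyst lines, and 4 higher and 3 lower in bone marrow lines. The catalytic subunit Pik3cb was 6.97-fold and 6.22-fold higher (adjusted p = 6.2e-05 and 8.1e-05) and the regulatory subunit Pik3r1 6.35-fold and 5.83-fold higher (adjusted p = 3.3e-04 and 3.9e-04).

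The growth hormone arm, which drives Igf1 in liver, had 6 of 6 genes tested, with 5 higher and 1 lower in each stem cell group against RClone-2. In these contrasts 48.7% and 46.8% of all probes passed. The lower one was Ghr, the growth hormone receptor, at least 13.2-fold lower in blastocyst lines (adjusted p = 1.7e-04) and at least 9.95-fold lower in bone marrow lines (adjusted p = 1.8e-04). Stat5b, which carries the growth hormone signal to the Igf1 gene, was 49.6-fold and 18.3-fold higher (adjusted p = 3.4e-04 and 0.0011), with 1 of 2 RClone-2 arrays above background. Between the stem cell groups Stat5b was 2.72-fold higher (adjusted p = 0.0276) and Socs3, a feedback inhibitor, 2.08-fold higher in blastocyst lines (adjusted p = 0.0181), with Jak2 1.56-fold lower (adjusted p = 0.0328).

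Each probe's own mean over the 7 lines was first subtracted, so likeness here concerns the pattern over lines and not the level. The genes nearest in pattern to each member were then ranked by root mean square difference, as a description that rests mainly on the 3 groups. Nearest to Igfbp3 were Igsf1 (0.18), Nup62cl (0.31) and Slc2a10 (0.32). Nearest to Igf1r were Tshz1 (0.27), S100a3 (0.29) and Fat3 (0.34), and nearest to Igfbp6 were Lgi2 (0.23), Cxcl3 (0.23) and Mepe (0.27). Igf1 at its brightest probe had Hbz nearest (0.49), Igfbp2 had Slc2a3 (0.44) and Igfbp4 had Slc7a9 (0.20). For Igfbp7 no gene came closer than Faxdc2 (0.60).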

How the data were processed

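Each sample was 1 µg of total RNA with viral control transcripts added, amplified, marked with Cy3 and put on a one-colour Agilent array, per the labels' protocols. Per the file headers the authors read the scans with Agilent Feature Extraction 10.7.3.1. The deposited scanner files hold, for every spot, an intensity as processed signal, mean signal and local background, without scaling across arrays, and flags of 0 or 1 (other values). A second deposited table is on the log2 scale, and its sorted values matched log2 of the processed signals, so it was used only for that check.

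From each log2 signal the 75th percentile of the array's 43379 non-control spots was subtracted. Outlier spots were dropped and spots of one probe averaged. A probe was kept where both arrays of some line were well above background, which left 29299 of 41012. Arrays A and B were averaged and lines compared with limma 3.58.1 (lmFit and eBayes under R 4.3.3, 4 residual degrees of freedom), after the fit had been tested on simulated data. Alternatives covered background correction, scaling, filters, probe choice, slide, array letter, sex, variance and left-out lines or arrays. All 9 genes are named. From each pathway list up to 4 genes per contrast qualified, by the largest difference among those that passed, and part is printed. Outside that rule, Igf2r, which passed in no contrast, and genes without a test are also named. Members, lists and alternatives were chosen with earlier results of these data known. RefSeq tables of GRCr8 gave current gene names and the promoters. Figures were drawn with matplotlib 3.10.9.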

Additional observations from a re-analysis of the deposited data

Results flagged for a closer look

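In 30 groups of 6 arrays, 5 values stood apart from the other arrays of their group by Dixon's criterion at the 95% level. The arrays of a group come in pairs from one line and are not independent, so no chance rate is attached. All 5 were RMAPC-1 arrays among the bone marrow arrays. Array B read 4.89 at Igfbp3 probe A_42_P627998 (nearest other array 2.75) and 3.70 at A_44_P180127 (nearest 1.64). Array A read -5.38 at Igfbp6 (nearest -3.63) and -4.94 at Igfbp7 (nearest -2.81). At Igfbp5 probe A_44_P264240 array A read -7.20 (nearest -7.94), a value not above background. The part that this line's difference between arrays plays in any contrast was not tested beyond the values given without each array.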

How the results depend on the processing

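Counts of member probes called by limma changed as follows. Between blastocyst and bone marrow lines, 7 of 13 members were called. Normexp background correction gave 2, while calls over all 29299 probes were 1621, against 9492 with the processed signal, and the brightest probe per gene gave 4 of 8 by construction. The pair of slides as a term and the fit within slides 1 and 3 each gave 0. Leaving out lines or arrays gave 3 (without all A arrays, with 3025 calls over all probes) to 9 (without array B of RMAPC-1, with 9807). For bone marrow lines against RClone-2 the brightest probe per gene gave 7 of 8, and leaving out gave 9 to 11. For blastocyst lines against RClone-2 leaving out gave 8 to 11, normexp 6 and no scaling 6. Calls over all probes were 6522 with normexp and 15108 with no scaling, against 14267 in the main fit. No paired design is stated, and B minus A correlated between lines from -0.24 to 0.18. The replicate block on the array letter gave 9, 11 and 10 calls in the 3 contrasts, with 11951, 15860 and 15476 over all probes.

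The sign turned in 24 of 999 single-probe results, none of them past the threshold. For blastocyst against bone marrow lines, leaving out lines or arrays moved Igfbp3 from -0.05 to 1.03 at A_42_P627998 and from -0.06 to 1.12 at A_44_P180127. The same fits moved Igfbp6 from -0.22 to 0.69, and both slide terms and the fit within slides 1 and 3 gave -0.38. Igf1 probe A_44_P421499 gave -0.11 for blastocyst lines against RClone-2 with spike-in scaling. For bone marrow lines against RClone-2, Igf1 probe A_44_P421502 gave 0.04 with normexp and 0.06 with outlier spots kept, and -0.10 to 0.08 when lines or arrays were left out. There Igfbp1 gave 0.04 with both slide terms and within slides 2 and 4, 0.00 with sex as a covariate, and -0.17 to 0.15 when lines or arrays were left out. The causes were not tested. Against RClone-2, Igfbp3, Igfbp6, Igf1r and Igf1 probe A_44_P366723 passed in every alternative run.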
